A study of Mus musculus with 2 samples.

Results

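The Ms4a genes encode membrane-spanning proteins of the CD20 family. The 10 genes described here are Ms4a1, Ms4a3, Ms4a4b, Ms4a4c, Ms4a4d, Ms4a6b, Ms4a6c, Ms4a6d, Ms4a7 and Ms4a13, out of 18430 genes that the array probes could be named for. They were found through the RefSeq transcript each probe is annotated to, which gave 15 probes of 41164 with a usable value on both arrays, and every one of the 15 is shown. The genes were chosen by the processed signals of these same arrays, with the KO to WT differences known, so the differences below are descriptions and no test was made on them. All 10 have a probe well above background on at least 1 of the 2 arrays. Of them, 7 passed on both arrays, while Ms4a3, Ms4a7 and Ms4a13 passed only through the array on which they are brighter. For these genes the filter itself favours a difference.

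The study compared Menin KO with Menin WT CD4 T cells, 1 array of each, both from spleen of female C57BL/6J mice. Menin, encoded by Men1, is a nuclear protein that acts with histone-modifying complexes, and the series ties it to Bach2, a repressor of effector genes. Naive cells of both genotypes had 2 days of stimulation through the T cell receptor and CD28 (immobilised anti-TCR-β, 3 µg/ml, and anti-CD28, 1 µg/ml) in the presence of 2.5 ng/ml IL-2, followed by another 3 days in IL-2 alone. The labels used here do not say how Men1 was deleted, which Cre drove the deletion or whether mice were pooled.

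Ms4a proteins cross the membrane several times and lie in the surface or internal membranes of blood cells, often beside other receptors. The best known are Ms4a1, the B cell protein CD20, and Ms4a2, the beta chain of the high-affinity IgE receptor of mast cells and basophils. Ms4a4b is a T cell member that associates with the costimulatory receptor GITR and modulates signalling through the T cell receptor, and several of the other members are best known from monocytes and macrophages. All the mouse genes of the family lie side by side on 1 chromosome, and many are near copies of their neighbours.

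In the RefSeq gene table of mouse build GRCm38.p6, 21 Ms4a genes lie on chromosome 19 between bases 10962289 and 11640851, a span of 678.6 kb. Of these, 16 had a named probe and 5 (Ms4a15, Ms4a18, Ms4a12, Ms4a14 and Ms4a4a) had none. The other 6 with a probe (Ms4a10, Ms4a8a, Ms4a20, Ms4a19, Ms4a5 and Ms4a2) were not well above background on either array. The dimmest of the 10 genes, Ms4a13, had a signal of 14.1 in KO, where it was well above background, and 2.92 in WT. The brightest probe left out, that of Ms4a5, had 9.69 in KO and 6.41 in WT. Ms4a2 had 6.67 in KO and 3.35 in WT.

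The genes that were lower in KO cells include pairs of near copies whose start regions also share sequence, so the 250 bases before the transcription start are shown for Ms4a4b with Ms4a4c and for Ms4a6b with Ms4a6c. They are RefSeq sequences of build GRCm38.p6, all on the plus strand, at chr19:11443308-11443557, chr19:11407411-11407660, chr19:11518309-11518558 and chr19:11469118-11469367. The listed start of Ms4a4c lies well inside the gene, which as annotated begins at base 11404717, so it is not the most upstream start. Capitals mark bases that are the same in both genes of a pair within their best local alignment.
Ms4a4b: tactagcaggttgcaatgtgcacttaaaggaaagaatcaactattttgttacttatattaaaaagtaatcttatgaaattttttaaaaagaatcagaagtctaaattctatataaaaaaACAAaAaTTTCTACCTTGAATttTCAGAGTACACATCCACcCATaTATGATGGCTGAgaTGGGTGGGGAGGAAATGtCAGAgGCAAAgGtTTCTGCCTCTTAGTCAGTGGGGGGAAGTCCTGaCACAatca
Ms4a4c: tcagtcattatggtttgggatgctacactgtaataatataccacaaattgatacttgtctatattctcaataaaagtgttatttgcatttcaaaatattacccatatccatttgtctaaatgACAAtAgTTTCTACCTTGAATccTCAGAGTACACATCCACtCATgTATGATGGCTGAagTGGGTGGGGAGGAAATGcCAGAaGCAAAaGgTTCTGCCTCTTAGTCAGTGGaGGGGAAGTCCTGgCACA
Ms4a6b: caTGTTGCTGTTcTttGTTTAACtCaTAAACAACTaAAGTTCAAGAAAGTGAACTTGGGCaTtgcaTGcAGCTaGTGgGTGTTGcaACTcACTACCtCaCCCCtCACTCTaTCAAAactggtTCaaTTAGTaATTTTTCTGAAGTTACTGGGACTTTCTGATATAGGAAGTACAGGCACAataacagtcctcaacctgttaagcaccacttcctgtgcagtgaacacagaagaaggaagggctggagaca
Ms4a6c: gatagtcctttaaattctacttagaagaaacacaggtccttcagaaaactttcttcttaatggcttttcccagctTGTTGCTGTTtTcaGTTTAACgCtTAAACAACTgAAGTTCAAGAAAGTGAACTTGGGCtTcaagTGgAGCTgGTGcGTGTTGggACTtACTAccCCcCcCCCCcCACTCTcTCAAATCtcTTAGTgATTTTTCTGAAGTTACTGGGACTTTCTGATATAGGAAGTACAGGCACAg
The aligned stretch of Ms4a4b and Ms4a4c covered 128 columns, of which 114 (89.1%) were identical, and it ended within 5 bases of both starts. The stretch of Ms4a6b and Ms4a6c covered 180 columns with 148 (82.2%) identical, and it ended 71 bases before the Ms4a6b start and 2 bases before the Ms4a6c start. Among the other pairs of Ms4a start regions no aligned stretch was longer than 20 columns. Starts were listed for 8 of the 10 genes, in 9 windows.

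The signal is the processed signal that Agilent's Feature Extraction gives each spot, in arbitrary units after background subtraction. A log2 difference is KO minus WT after each array's log2 signals were set relative to its 75th percentile, so a positive value means higher in KO. The ± beside a signal or a log2 difference is Feature Extraction's own error estimate for the spot, carried into the difference. It covers the reading of 1 spot, not the spread that other animals, cultures or labelling reactions would add. With 1 array per genotype there is no replicate and no p-value. The 75th percentile of signal was 650 on the KO array and 644 on the WT array, and 63.5% and 59.5% of non-control spots were well above background. Across repeated spots of the same probe the log2 difference had an SD of 0.16 (146 probes, pooled). The SD was 0.32 for the 34 of them with a mean signal under 100 and 0.056 for the other 112. The targeted gene Men1 had a signal of 459 in KO and 1081 in WT (log2 difference -1.25 ± 0.20, 1 probe whose place relative to the deleted part is not known here). Bach2 had 604 in KO and 4643 in WT (log2 difference -2.96 ± 0.20).

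Of the 10 Ms4a genes, 7 were at least 2-fold lower in KO cells, 2 were at least 2-fold higher and 1 could not be placed. Over all 13510 named genes with a difference or a bound, 5.14% were at least 2-fold lower in KO and 10.8% at least 2-fold higher. Among the 7 Ms4a genes measured on both arrays, 6 were at least 2-fold lower in KO and 1 at least 2-fold higher, where 4.51% and 8.86% of the 12475 such genes were. The median log2 difference was -2.01 over the Ms4a genes, 3 of them entering as bounds, against -0.01 over all genes, and -2.20 over the 7 measured on both arrays, against -0.03. Since the list was chosen with these differences known, the counts and medians describe it and support nothing further.

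**Figure D1:**
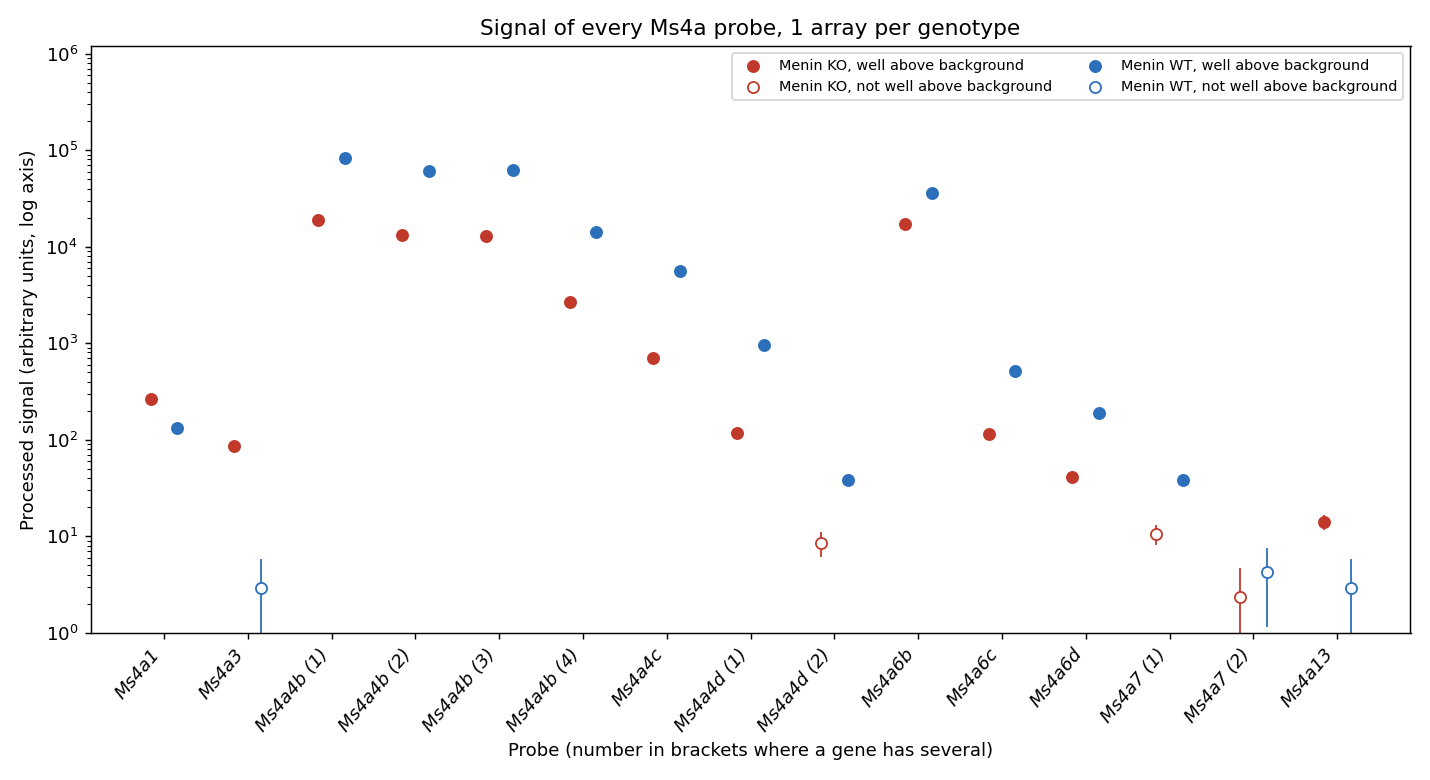
Processed signal (arbitrary units, log axis) of all 15 Ms4a probes on the Menin KO array (left of each pair) and the Menin WT array (right), with Feature Extraction's error estimate as bars, which are hidden behind bright points and run off the axis for the dimmest. Open circles are not well above background. Probes of Ms4a4b, Ms4a4c, Ms4a4d, Ms4a6b, Ms4a6c, Ms4a6d and Ms4a7 are dimmer in KO and those of Ms4a1, Ms4a3 and Ms4a13 brighter.

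Ms4a4b, the T cell member of the family, was read by 4 probes that gave nearly the same difference. The first probe had a signal of 18750 ± 1875 in KO and 82840 ± 8284 in WT. The next had 13220 ± 1322 in KO and 61206 ± 6121 in WT, and the third 12809 ± 1281 in KO and 62626 ± 6263 in WT. The dimmest had 2698 ± 270 in KO and 14341 ± 1434 in WT. All 4 were lower in KO, by 4.46-fold to 5.36-fold, and the mean log2 difference was -2.28 ± 0.11 (SD over 4 probes of the same transcript, which share their RNA and arrays). Ms4a4b ranked 91st from the lowest among 12475 genes measured on both arrays, by its brightest probe (log2 difference -2.16 ± 0.20). In RNA from a bulk sample, fewer cells of a type and less RNA per cell cannot be told apart.

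Ms4a4c, the neighbour and near copy of Ms4a4b, was lower by more. Its 1 probe had a signal of 705 ± 70.6 in KO and 5621 ± 562 in WT, a difference of 8.04-fold (log2 -3.01 ± 0.20), the 28th lowest of 12475. The log2 difference of Ms4a4c lay below that of each of the 4 Ms4a4b probes, by more than the error of either. Whether a probe of one near copy also binds the RNA of the other was not tested, since the files hold no probe sequences.

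Ms4a6b, another member abundant in T cells, had the smallest of the decreases. Its signal was 17145 ± 1715 in KO and 36308 ± 3631 in WT, which is 2.14-fold lower in KO (log2 difference -1.10 ± 0.20, 451st of 12475). This lies within its error of the 2-fold limit. Its paralog Ms4a6c, which is known from monocytes, had a signal of 114 ± 11.6 in KO and 519 ± 52.0 in WT, a difference of 4.60-fold (log2 -2.20 ± 0.21). Ms4a6b and Ms4a6c share the start sequence shown above, and the log2 differences of the pair were further apart than the error of either.

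Ms4a4d had a signal of 116 ± 11.8 in KO and 958 ± 95.9 in WT on its brighter probe, 8.32-fold lower in KO (log2 difference -3.06 ± 0.21). It was the 25th lowest of 12475 genes. Ms4a4d and Ms4a4c differed by less than their errors, and Ms4a4c was the lower after both normexp corrections. Its second probe was much dimmer, with 8.55 ± 2.52 in KO, where it was not well above background, and 38.3 ± 4.97 in WT, so it was at least 3.72-fold lower. Both probes of Ms4a4d thus gave a lower signal in KO.

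Ms4a6d, a member found in macrophages, had a signal of 41.0 ± 4.75 in KO and 190 ± 19.3 in WT, 4.69-fold lower in KO (log2 difference -2.23 ± 0.22). Ms4a7, also a macrophage gene, was read by 2 probes. One had 10.5 ± 2.38 in KO, not well above background, and 37.9 ± 4.72 in WT, so it was at least 3.62-fold lower in KO. The other probe had 2.32 in KO and 4.30 in WT and passed the background limit on neither array, so only 1 probe places Ms4a7.

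Ms4a1, encoding the B cell surface protein CD20, was higher in KO at the edge of the 2-fold limit. Its signal was 266 ± 26.7 in KO and 131 ± 13.4 in WT, which is 2.01-fold (log2 difference 1.01 ± 0.21), and 1093 of 12475 genes had a difference at least as high. Ms4a3, known as HTm4 and found in granulocyte and monocyte precursors and in basophils, was well above background in KO only. Its signal was 85.8 ± 8.86 in KO and 2.90 ± 2.90 in WT. Against the lowest signal that counted as well above background on the WT array (14.0), Ms4a3 was at least 6.07-fold higher in KO. Ms4a13 was well above background in KO only, with 14.1 ± 2.61 in KO and 2.92 ± 2.91 in WT. Its KO signal barely passed the lowest WT signal well above background, so its bound is near 0 on the log2 scale and no fold is given.

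**Figure D2:**
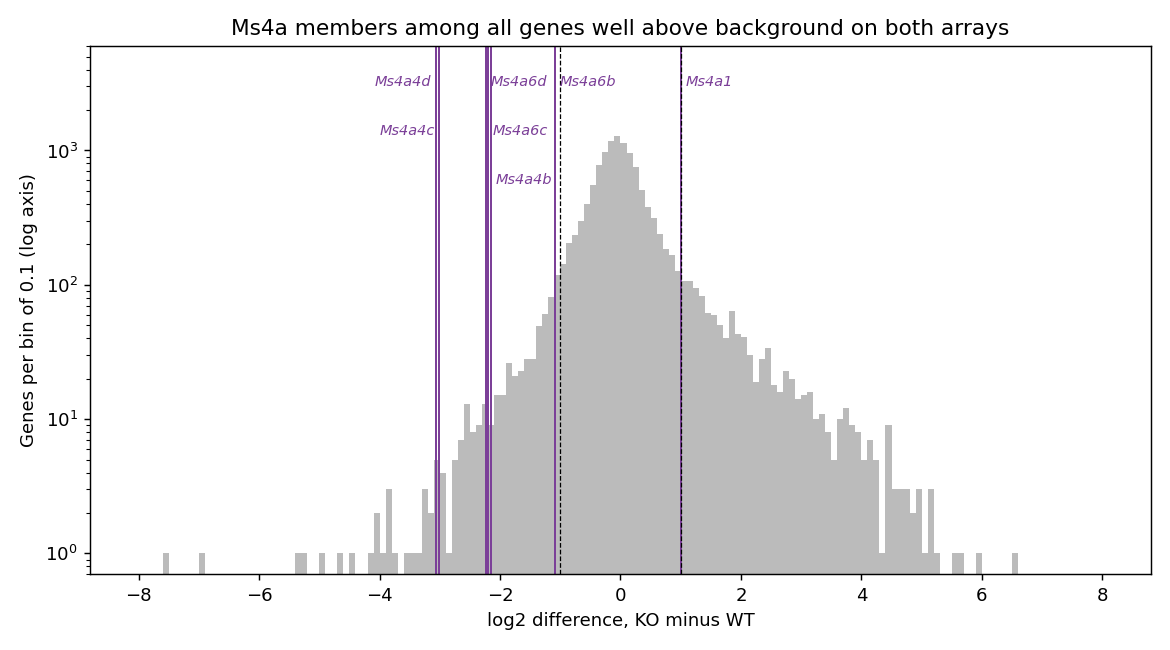
Number of genes per bin of 0.1 in log2 difference, KO minus WT (count on a log axis), for the 12475 genes well above background on both arrays, with the 7 Ms4a genes among them as purple lines and the 2-fold limits as dashed lines. Ms4a4d (-3.06) and Ms4a4c (-3.01) lie far in the lower tail, Ms4a6d, Ms4a6c and Ms4a4b near -2.2, and Ms4a6b (-1.10) and Ms4a1 (1.01) close to the limits.

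The 7 lower genes lie next to each other. In chromosome order they run Ms4a7, Ms4a4c, Ms4a4b, Ms4a6c, Ms4a6b, Ms4a4d and Ms4a6d, from base 11321039 to base 11604804 of chromosome 19 (283.8 kb), with no measured gene between them. Ms4a4a lies among them and had no named probe. The genes that were not lower flank this block: Ms4a13 and Ms4a1 on one side and Ms4a3 on the other, with the undetected Ms4a5 and Ms4a2 between. Where the start table gives a strand, the lower genes Ms4a4c, Ms4a4b, Ms4a6c, Ms4a6b and Ms4a4d are on the plus strand, while Ms4a7, Ms4a13 and Ms4a3 are on the minus strand, and no strand was listed for Ms4a1 and Ms4a6d.

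Reading all 13510 named genes in chromosome order, the longest run of consecutive genes at least 2-fold lower in KO was this block of 7. Ms4a7 enters it as a bound. Since the Ms4a genes were chosen with these differences known, the run describes them and supports nothing further. Whether probes of near copies bind each other's RNA was not tested. The next longest runs of lower genes held 4 genes, and there were 2 of them: Ifit2, Ifit3, Ifit1bl1 and Ifit3b, which are interferon-stimulated near copies, and Grtp1, Adprhl1, Dcun1d2 and Tmco3. Among genes at least 2-fold higher in KO the longest run held 8 genes of the kallikrein family. With each array centred on its median, the Ms4a run held 7 genes and the longest run elsewhere 6 (Fas, Lipa and the 4 Ifit genes). With a normexp background correction the Ms4a run was shorter. It held 4 genes (against 6 for a run of protocadherin genes and Slc25a2), or 3 genes (as long as the longest run elsewhere) once 6 aberrant local backgrounds on the WT array were replaced.

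**Figure D3:**
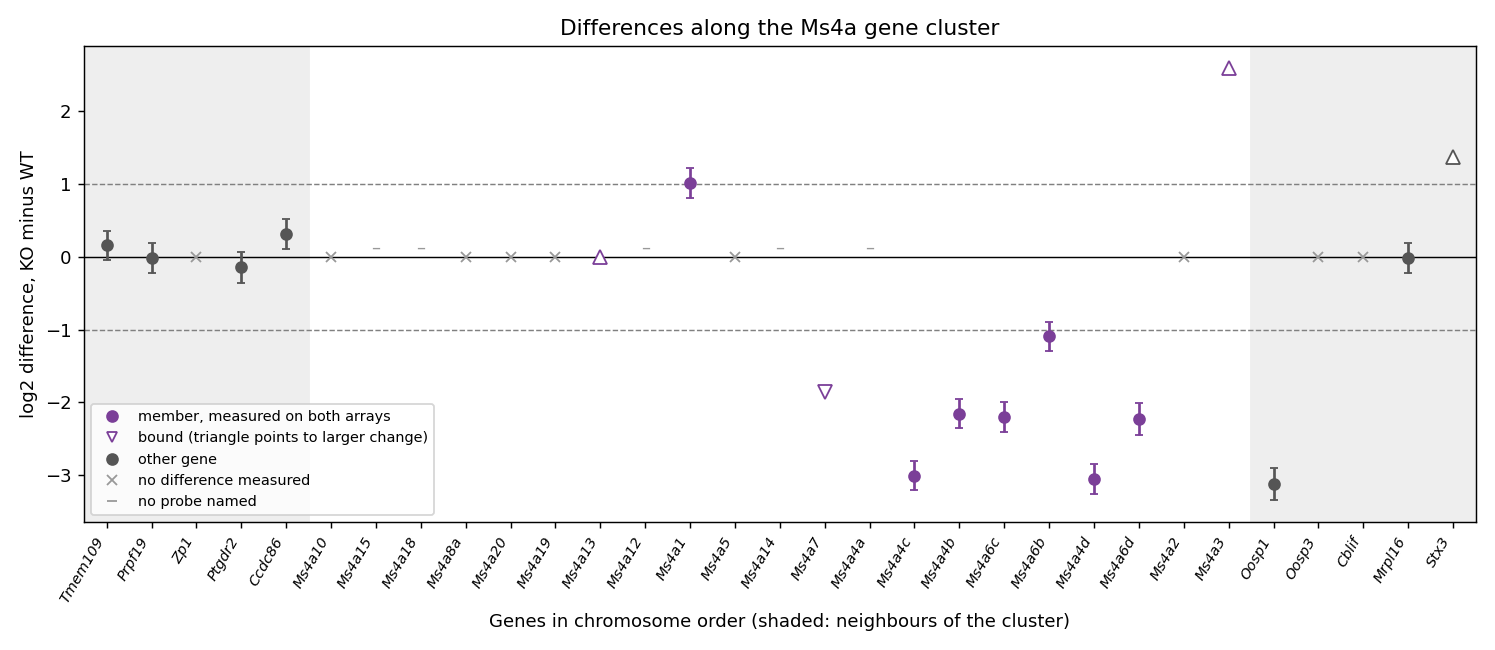
log2 difference, KO minus WT, of the Ms4a genes and of the 5 genes with a probe on each side (shaded), in chromosome order from left to right. Circles with error bars were measured on both arrays, triangles are bounds, crosses had no measured difference and dashes no named probe. The block from Ms4a7 to Ms4a6d lies below -1, and Ms4a1 and Ms4a3 lie above it on either side.

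Of the 10 nearest other genes with a probe, Oosp1 was at least 2-fold lower in KO and Stx3 at least 2-fold higher. On the side of Ms4a10, Ccdc86 had a signal of 4436 in KO and 3529 in WT (log2 difference 0.32), and Tmem109 (0.16), Prpf19 (-0.02) and Ptgdr2, a prostaglandin D2 receptor of Th2 cells (-0.14), were also less than 2-fold apart. Zp1 gave no usable bound. On the side of Ms4a3, the oocyte-secreted gene Oosp1 was lower in KO, with 38.2 in KO and 330 in WT on its brighter probe (log2 difference -3.12 ± 0.23) and 39.2 in KO and 89.9 in WT on the other (-1.21). With only probes well above background on both arrays, which leaves out Ms4a7 and Ms4a3, Oosp1 followed Ms4a6d as the last gene of a run of 7 lower genes. Mrpl16, a mitochondrial ribosomal protein gene, had 6360 in KO and 6359 in WT. Stx3, a syntaxin, was at least 2.58-fold higher in KO on its brightest probe, although another of its 4 probes gave no usable bound and the rest were not well above background. Oosp3 and Cblif were not well above background on either array.

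Men1 lies on the same chromosome, and the Ms4a cluster starts 4.62 Mb from its end. Of the 95 genes measured between Men1 and the cluster, 4 (4.21%) were at least 2-fold lower in KO and 7 (7.37%) at least 2-fold higher, with a median log2 difference of -0.02. On chromosome 19 outside the Ms4a cluster, 25 of 489 genes (5.11%) were lower and 50 (10.2%) higher. In the same span beyond the cluster, 2 of 31 genes (6.45%) were lower and 2 (6.45%) higher, with a median of -0.15. Over all genes the shares were 5.14% lower and 10.8% higher. Cd5, 3.32-fold lower in KO, is one of the 4 lower genes between Men1 and the cluster, and lies from base 10718107 to base 10739026.

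Genes of the cells that members of the family are known from were read beside them. A summed signal adds 1 signal for each listed gene with a probe, detected or not. It is set mostly by the brightest genes and does not measure a share of cells. Markers of T cells (the CD4 T cell list), most of them shared by CD4 and CD8 T cells, were well above background on both arrays for 10 of 10. Their summed signal was 269413 in KO and 330874 in WT. Of these, 2 were at least 2-fold lower in KO, 8 lay between and none was higher. Trat1, an adaptor of the T cell receptor complex, was 13.9-fold lower and Cd5, a restraining receptor of T cells, 3.32-fold lower. The signalling chain gene Cd3d had 55593 in KO and 62714 in WT. The Cd4 probe had 279 in KO and 443 in WT (log2 difference -0.68). The T cell genes Ms4a4b and Ms4a6b were lower in KO, and 8 of 10 T cell markers were less than 2-fold apart. Ms4a6b lies within its error of that limit. After normexp its log2 difference was -0.72, or -0.95 with backgrounds replaced. Shared markers cannot tell CD4 from CD8 T cells, and Cd8a was 10.2-fold higher in KO. A change in the mix of T cells was not tested.

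On the list of naive and memory T cell genes, 7 of 12 were at least 2-fold lower in KO and the other 5 less than 2-fold apart, with a median log2 difference of -1.82. They include Tcf7, encoding TCF-1 (22.2-fold lower), and Foxp1, a quiescence factor (4.84-fold lower). Klf2, a regulator of T cell trafficking, had a log2 difference of 0.15 and Il7r, the IL-7 receptor chain, 0.83. Several of these genes were known to be lower in these data when the list was written.

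Markers of B cells were read beside Ms4a1. Of 10 B cell markers, 7 were well above background in KO and 6 in WT, with a summed signal of 5424 in KO and 2500 in WT. Of the 7 with a difference or bound, 3 were at least 2-fold higher in KO, none was lower, and the other 4 (1 of them a bound) were short of the limit. After normexp, 1 was at least 2-fold higher and 1 lower, and the list's median log2 difference turned to -0.30, against 0.78 as reported. With backgrounds replaced 1 was higher and none lower, with a median of 0.42. Cd22, an inhibitory receptor of B cells, had 92.7 in KO and 30.7 in WT (2.99-fold higher), Cd74, the invariant chain of MHC class II, 3916 in KO and 1648 in WT (2.35-fold), and Fcer2a, the low-affinity IgE receptor, 48.5 in KO and 20.6 in WT (2.33-fold). Cd79b, a chain of the B cell receptor complex, had 1155 in KO and 665 in WT (1.72-fold). The B cell factors Pax5, Ebf1 and Blk were not well above background on either array. The part of B cells in the Ms4a1 difference was not tested.

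Ms4a3 was higher in the same array as several genes of mast cells and basophils. Of 10 such markers, 9 had a probe, 7 were well above background in KO and 5 in WT, and the summed signal was 1053 in KO and 326 in WT. Of 7 with a difference or bound, 4 were at least 2-fold higher in KO, none was lower, and the other 3 (1 of them a bound) were short of the limit. After normexp, 1 was at least 2-fold higher and 1 lower, and the median log2 difference was -0.11, against 1.22 as reported. With backgrounds replaced 3 were higher and none lower, with a median of 0.86. Cpa3, a mast cell carboxypeptidase, had 367 in KO and 28.2 in WT (12.9-fold higher), and Mcpt8, a basophil protease, had 162 in KO and 13.7 in WT (at least 11.4-fold). Cma1, mast cell chymase, was 6.82-fold higher. Hdc, the enzyme that makes histamine, had 96.4 in KO and 168 in WT (log2 difference -0.81). Of the defining genes Ms4a2 and Tpsb2 were not well above background on either array. Markers of myeloid precursors and neutrophils, the other source of Ms4a3, had 3 of 7 well above background in KO and 2 in WT, with a summed signal of 109 in KO and 162 in WT, and 0 of 3 with a difference or bound were at least 2-fold apart. After normexp, 2 of these markers were at least 2-fold lower in KO (median log2 difference -1.14, against -0.48 as reported). With backgrounds replaced none was at least 2-fold apart, and the median was -0.45. Elane, S100a8, S100a9 and Camp were not well above background on either array. The part of such cells in the Ms4a3 difference was not tested.

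Markers of monocytes and macrophages were read beside Ms4a6c, Ms4a6d and Ms4a7, which were lower in KO. Of 10 markers, 9 had a probe, 7 were well above background in KO and 5 in WT, and the summed signal was 707 in KO and 376 in WT. Of 7 with a difference or bound, 3 were at least 2-fold higher in KO, 3 were measured and less than 2-fold apart, and 1 had a bound short of the limit. Cd14, a receptor for bacterial lipopolysaccharide, was 7.25-fold higher, Fcgr3, an IgG receptor, at least 9.50-fold and Adgre1, a surface receptor that marks macrophages, at least 5.08-fold. Mpeg1 (log2 difference -0.64) and Csf1r (-0.39) were on the lower side, and Lyz2, which had 2.20 in KO and 19.5 in WT, had a bound of -0.92. This count turned with the processing. After normexp, 0 were at least 2-fold higher in KO and 2 lower, with a median log2 difference of -0.79 against 0.00 as reported. With backgrounds replaced 2 were higher and none lower, with a median of -0.14. With quantile normalization, median centring, loess or no filter on dim probes, 1 was at least 2-fold lower. Itgam did not pass the background limit on either array. The part of such cells in the differences of Ms4a6c, Ms4a6d and Ms4a7 was not tested.

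**Figure D4:**
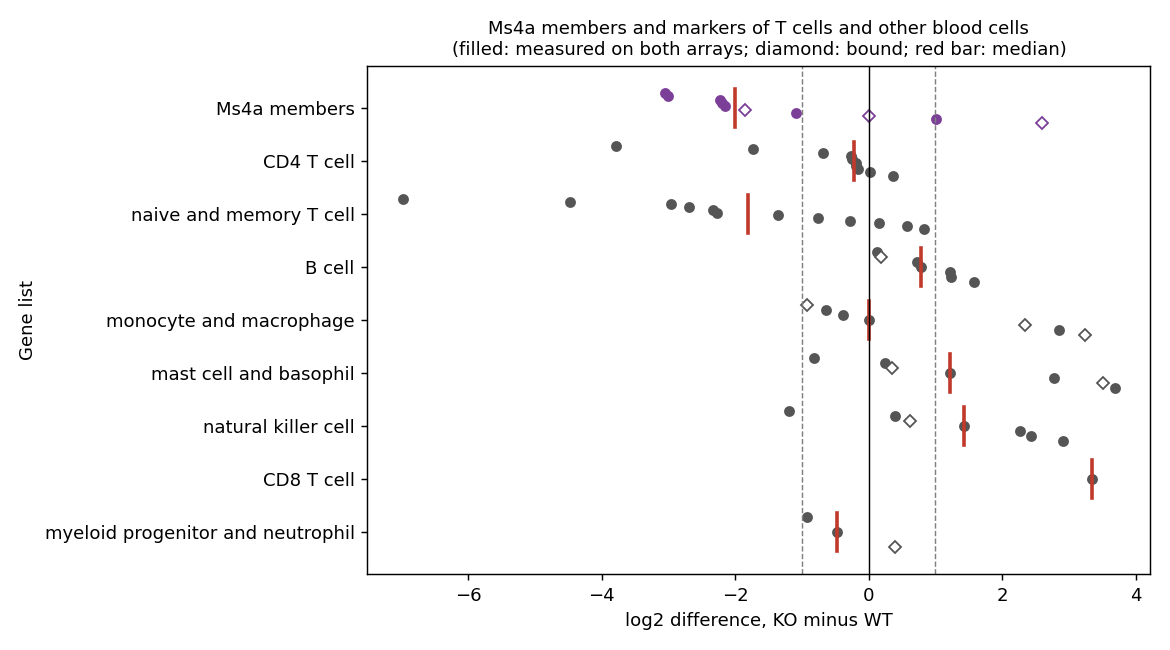
log2 difference, KO minus WT, of each Ms4a gene (purple) and of each marker with a difference or bound (grey), by list from top to bottom, with dashed 2-fold limits. Filled circles were measured on both arrays, open diamonds are bounds and red bars are list medians. The Ms4a genes spread from -3.06 to a bound of 2.60, the median of the naive and memory T cell list was -1.82 and that of the B cell list 0.78.

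Markers of other lymphocytes moved in the same array. Cd8a had 3213 in KO and 312 in WT (10.2-fold higher), and the other listed CD8 marker, Cd8b1, had no named probe. Of 7 natural killer cell markers, 4 were at least 2-fold higher in KO, 1 (Eomes, 2.30-fold) lower and 2 short of the limit. After normexp 3 were higher and 1 lower, with a median log2 difference of 0.70 against 1.43 as reported. With backgrounds replaced 3 were higher and 1 lower, with a median of 0.76. The part of such cells in the Ms4a differences was not tested. Fcer1g, a signalling chain of Fc receptors that pairs with Ms4a2 in the IgE receptor, had 5087 in KO and 669 in WT (7.54-fold higher). Fcer1a, the IgE-binding chain of that receptor, had 75.9 in KO and 32.3 in WT (2.33-fold higher). Of the 3 kinds of chain of the high-affinity IgE receptor, those encoded outside the Ms4a cluster were thus higher in KO, and Ms4a2 was not well above background.

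A pair of genes for proteins that bind Ms4a proteins was added after the data were seen. Tnfrsf18, encoding GITR, the partner of Ms4a4b, had 128104 in KO and 105867 in WT (log2 difference 0.26 ± 0.20). Cdkn3, a phosphatase of cell cycle kinases that human HTM4 binds, had 4552 in KO and 10932 in WT (2.42-fold lower in KO) and 2.48-fold lower on its other probe. GITR was thus less than 2-fold apart while all 4 Ms4a4b probes were over 4-fold lower in KO.

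The start regions of the family were searched on both strands for short motifs in windows from 250 bases before to 50 after each start. The pattern TGANTCA (N for any base), looser than the AP-1 and Bach core, was found in 2 of 9 Ms4a windows. It was in 7.81% of 32817 windows of all genes. In Ms4a4b it reads TGAATCA and begins 23 bases into the transcribed part. In 1 of the 2 windows of Ms4a7 it reads TGATTCA and begins 81 bases before the start. Neither match has the C or G that the core has in the middle. The TCF and LEF core CTTTGAT was found in 1 of 9 (Ms4a4d), against 3.73%. The Runx core TGTGGT was found in 2 of 9 (Ms4a13 and Ms4a4c), against 16.8%, and TATAAA in 1 of 9 (Ms4a4b), against 13.6%. The core of interferon-stimulated elements, a pair of GAAA with 2 bases between, was in 0 of 9, against 3.43%. No matches in the Ms4a windows overlapped. A match shows only that the letters are there. No motif of the 5 searched was shared by both genes of either pair of near copies. The matches in Ms4a4b and Ms4a4c lay outside the stretch that aligned between them, and Ms4a6b and Ms4a6c had no match.

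**Figure D5:**
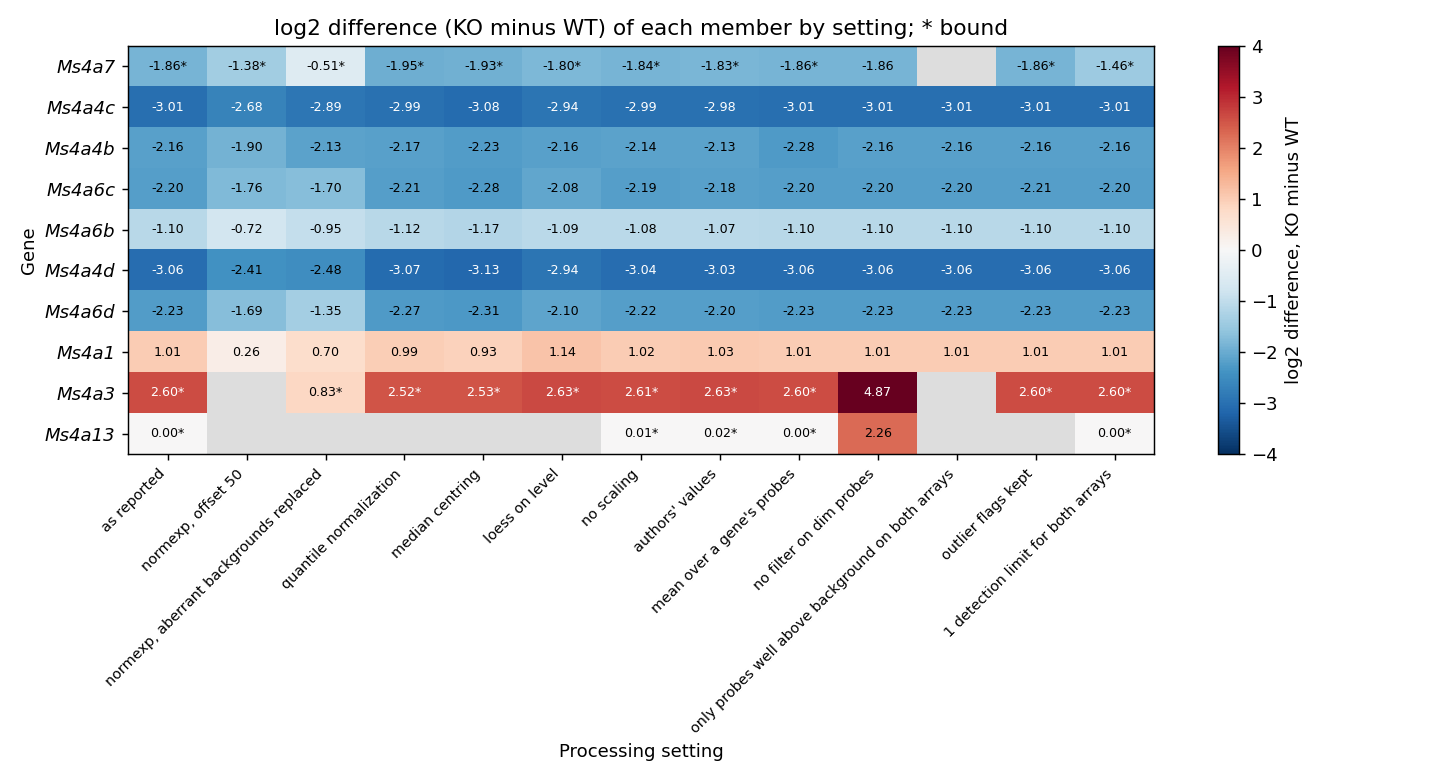
log2 difference, KO minus WT, of each Ms4a gene (rows) as reported and under 12 other ways to process the arrays (columns). Red is higher and blue lower in KO, an asterisk marks a bound and grey a gene with no difference or bound in that setting. The 7 lower genes stay below 0 in every column that gives a value, from -3.13 for Ms4a4d to -0.51 for Ms4a7.

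Under the 12 other ways to process the arrays, Ms4a4b ranged from -2.28 to -1.90, Ms4a4c from -3.08 to -2.68, Ms4a4d from -3.13 to -2.41 and Ms4a6c from -2.28 to -1.70. Ms4a6d ranged from -2.31 to -1.35. These 5 were at least 2-fold lower in KO in each of the 12. Ms4a6b ranged from -1.17 to -0.72 and was less than 2-fold lower after both normexp corrections. Ms4a7 ranged from -1.95 to -0.51 over the 11 that gave it a value, and was under the 2-fold limit after normexp with replaced backgrounds. Ms4a1 ranged from 0.26 to 1.14. Ms4a3 had a value in 10 of the 12, from a bound of 0.83 to 4.87 as read with no filter on dim probes. The order in which Ms4a4c and Ms4a4d lay below Ms4a4b and Ms4a6b was the same in all 12. However, only both normexp corrections, quantile normalization, loess and the mean over probes could move genes measured on both arrays relative to each other. The other settings shift every gene by the same amount or leave such genes unchanged, so their agreement was set in advance.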

How the data were processed

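Total RNA (500 ng) of 1 Menin KO and 1 Menin WT sample was labelled with Cy3 and read on 1-colour Agilent arrays of 1 slide in 1 scan, per the file headers and the labels' protocols. Feature Extraction 10.7.3.1, per the file headers (10.7 per the submitters' processing notes), made the deposited intensity of each spot, which is background-subtracted, detrended, on a linear scale and not scaled between arrays. The authors also deposited a table of log2 values. For 99.7% of probes its columns equalled the log2 processed signal less 1 constant per array, within 0.01, which settles its scale, centring and direction. The column medians were -3.90 (KO) and -3.97 (WT).

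Control spots and spots with an outlier flag (103 on KO, 115 on WT) were left out. No spot was saturated. Each array's log2 signals were set relative to their 75th percentile, and spots of a probe were averaged. Probes were named through RefSeq accessions (GRCm38.p6 gene table), which were compared without version numbers. The probe annotation of the arrays is on mm9, and every coordinate given is from the GRCm38.p6 tables. A gene was represented by its brightest probe with a detected spot. A probe detected on 1 array only has a bound, in which the other array's level is replaced by its detection limit (the lowest detected signal, 10.4 on KO and 14.0 on WT) unless the probe itself reads higher. Detected means Feature Extraction's call of well above background. A gene counted as changed at a log2 difference of 1 or more. With 1 array per genotype no test was made. The number of arrays sets the precision.

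The members, gene lists and rule for named genes (all Ms4a genes, the 5 genes with a probe on each side, Men1, Bach2, and markers at least 2-fold apart with the brightest others) were chosen with earlier results of these data known, and a few markers outside the rule were named after their values were seen. Start regions came from a RefSeq table and were aligned with Biopython 1.88 (local alignment, match 1, mismatch -2, gap opening -4, gap extension -1). Alternatives were run with limma 3.58.1 (normexp with offset 50 on median spot signals, quantile, loess) and Python 3.11.15. The difference and bound procedure was tested on simulated data.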

Additional observations from a re-analysis of the deposited data

How the results depend on the processing

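The count of lower Ms4a genes (7) ranged from 5 to 7 and the count of higher ones (2) from 0 to 3 over the settings tried. The higher count was 0 after normexp and after normexp with aberrant backgrounds replaced, and 1 after quantile normalization, after median centring, with probes well above background on both arrays only, and with a 4-fold limit, since Ms4a1 lies at the 2-fold limit and Ms4a3 is a bound. The family median (-2.01) was -1.73 after normexp, -1.35 with backgrounds replaced, -2.17 after quantile normalization, -2.23 after median centring, -2.20 over genes measured on both arrays, and -1.81 with 1 detection limit for both arrays, an alternative chosen after the data were seen, as was the median over measured members. Normexp gave Men1 as -1.02 and Bach2 as -2.57. Over all genes, 13.2% were lower and 4.72% higher after normexp, 2.79% and 5.75% with backgrounds replaced, 12.7% and 17.3% at a 1.5-fold limit, and 1.17% and 4.01% at a 4-fold limit. Normexp also turned the median of the mast cell and basophil list (-0.11, 1.22 as reported) and of the B cell list (-0.30, 0.78 as reported). Replaced backgrounds were the 6 local values above 200, all on WT. The 2 normexp settings differed only in these 6 values. Replacing them brought the median of the B cell list to 0.42 and that of the mast cell and basophil list to 0.86. The causes of the other changes were not tested. The remaining settings were loess, no scaling, the authors' values, the mean over probes, no filter on dim probes and kept outlier flags. In none of the settings, these or those above, did a Ms4a gene measured on both arrays change direction. No paired analysis was possible because each genotype has 1 array. Signals near the background limit (Ms4a7, Ms4a13, Ms4a3 in WT) give bounds only.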
